A study of Drosophila melanogaster with 4 samples.

Results

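The nucleosome remodeler Mi-2 was knocked down with siRNA in Drosophila ovarian somatic cells, and the genes described here are those whose RNA was under 0.5-fold of the control after that knockdown. Expression was measured as FPKM, which scales the fragments of a transcript to its length and to the mapped reads of the library. FPKM were summed over the transcripts of each gene. A gene was kept when its mean over the 4 libraries was at least 5 FPKM and its (siMi2 + 0.1) FPKM was below 0.5-fold of its (siEGFP + 0.1) FPKM. Mi-2 itself was left out. The rule took 172 genes of the 6149 that passed the minimum, which is 2.8% of them, out of 16791 genes in the table besides Mi-2, and the 172 are called the members. The members were thus chosen by the siMi2 to siEGFP ratio, and those ratios are given as a description.

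Mi-2 is an ATPase that slides and repositions nucleosomes. It works in the Drosophila NuRD complex with the histone deacetylase Rpd3 and in the dMec complex with MEP-1, both mostly known for repression, while remodelers of this family are also found at active genes. In the follicle cell layer from which these cells derive, nuclear Piwi guided by piRNAs silences transposons through chromatin, and Piwi, Mi-2 and Rpd3 were depleted to ask about that silencing. The ovarian somatic cells are a cultured line that carries the somatic arm of the piRNA pathway and no germline.

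The 4 libraries were of poly(A) RNA from cells 4 days after the knockdown of EGFP (siEGFP, the control), Piwi, Mi-2 or Rpd3, kept at 26 °C, and each condition had 1 library. No test between conditions was therefore possible. Intervals given below are exact 95% Clopper-Pearson intervals on whole reads recovered from the FPKM values and cover counting error only. In a bulk culture, fewer cells with an RNA and less of that RNA in each cell cannot be told apart.

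The libraries held 32638866 to 38060116 mapped reads. Mi-2 itself was at 34.4 FPKM in siEGFP, 69.3 in siPiwi, 5.67 in siMi2 and 83.6 in siRpd3, and piwi at 73.5, 38.9, 104 and 84.6. The piwi RNA was thus lower in siPiwi than in the control but not below 0.5-fold, at a log2 ratio of -0.92. The RNA of Rpd3, listed as HDAC1, was at 71.3 FPKM in siEGFP, 109 in siPiwi, 54.7 in siMi2 and 104 in siRpd3. It was thus not lower in the library labelled siRpd3 than in the control. Within these RNA data every direction drawn from that library rests on its label, and siRpd3 below names the library, not a shown loss of the RNA. The paper reports a check of its RNAi in these cells by western blot for the Rpd3 protein, which these libraries do not measure. Of 6 ovarian somatic markers, which summed to 199 FPKM in siEGFP, 233 in siPiwi, 283 in siMi2 and 328 in siRpd3, tj was at 64.0 to 135 FPKM, fs(1)Yb at 38.8 to 70.2, zfh1 at 2.51 to 13.8 and bab2 at 2.98 to 6.76, while Fas3 was at 1.57 in siEGFP and 49.4 in siRpd3. The 7 germline markers summed to 3.32 FPKM in siEGFP, 6.40 in siPiwi, 15.1 in siMi2 and 5.87 in siRpd3, with osk and zpg at or near 0 and with aub at 0.328 in siEGFP and 8.06 in siMi2 and vas at 0.024 and 2.66. The 4 haemocyte markers summed to 0.113 FPKM in siEGFP, 0.745 in siPiwi, 2.31 in siMi2 and 10.4 in siRpd3, nearly all of it from srp (0.113 in siEGFP, 1.91 in siMi2 and 10.4 in siRpd3), with Hml at or near 0. The 3 muscle markers summed to 29.4, 56.6, 61.7 and 351 FPKM in the same order, nearly all from Act57B, and the 3 neuron markers to 1.03, 1.24, 1.95 and 3.40. Their part in the values of the members was not tested. The median gene stood at a log2 ratio to siEGFP of 0.04 in siMi2, 0.29 in siPiwi and 0.52 in siRpd3, and medians over the members are set beside those. Calls of lower, higher or level for a gene are against siEGFP without scaling, unless stated.

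The question for the other libraries was whether genes lower in siMi2 were also lower in siPiwi or in the library labelled siRpd3. In siPiwi, 23 of the 172 members were below 0.5-fold of siEGFP, against 1.72% of all genes tested, 5 were above 2-fold, against 9.3%, and 144 lay between. Their median log2 ratio was -0.15, with quartiles of -0.59 and 0.13, below the median of 0.29 over all genes. In the library labelled siRpd3, 61 members were below 0.5-fold, against 7.42% of all genes, 14 were above 2-fold, against 35.5%, and 97 lay between. Setting the median gene of every library to that of siEGFP took 191 members. Of these, 39 were below in siPiwi, against 3.29% of all genes so scaled, and 3 above, against 3.84%, while 93 were below in the library labelled siRpd3, against 18.7%, and 5 above, against 22.1%. The unscaled median in the latter was -0.51, with quartiles of -1.38 and 0.15, against 0.52 over all genes. The share within 2-fold of siEGFP was 83.7% of the members and 89% of all genes in siPiwi, and 56.4% and 57.1% in the library labelled siRpd3. All these ratios share the siEGFP library with the rule, and a high reading of a gene in that single library cannot be told apart from a lower level in the 3 knockdowns. The members had their highest value in siEGFP in 90 cases, against 13.4% of all genes.

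**Figure D1:**
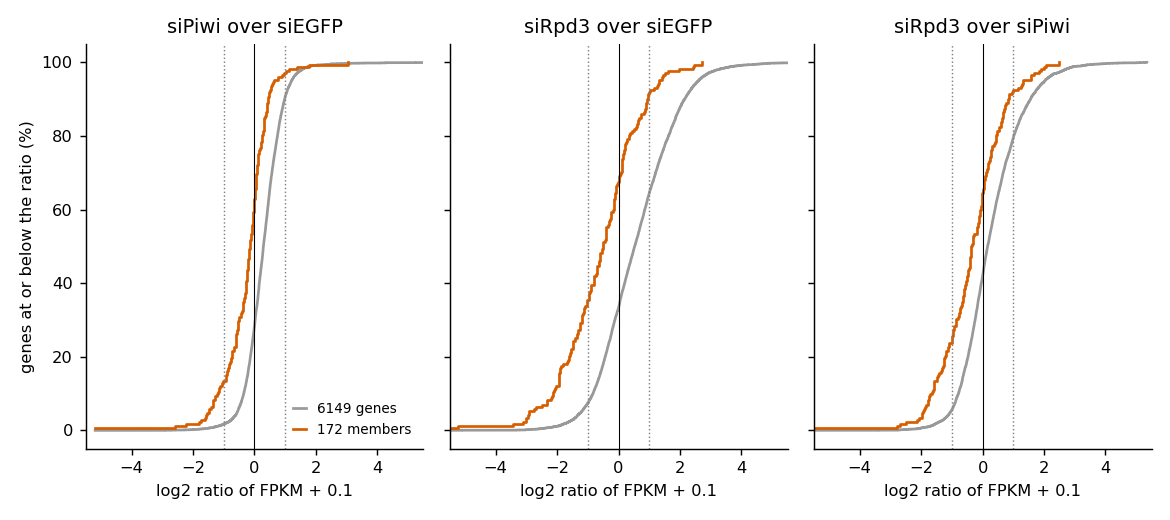
Cumulative share of genes (y axis, percent) at or below each log2 ratio of FPKM + 0.1 (x axis, shown from -5.5 to 5.5) for the 172 members and the 6149 genes tested, with dotted lines at 0.5-fold and 2-fold. The members' curve lies to the left over most of the range in all 3 panels, with medians of -0.15 against 0.29 in siPiwi, -0.51 against 0.52 in the library labelled siRpd3, and -0.35 against 0.16 for that library over siPiwi.

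The members were chosen for a low siMi2 value, so the next counts, which set siMi2 against the other libraries, describe the rule. The siMi2 value was below 0.5-fold of the siPiwi value for 110 members, against 10.5% of all genes, and below 0.5-fold of the value in the library labelled siRpd3 for 82, against 32.9%. The siMi2 library was the lowest of the 4 for 138 members, against 31.9% of all genes. For 33 members the library labelled siRpd3 was the lowest, against 24.3% of all genes, and for 1, the catalase gene Irc, siPiwi was, against 8.25%. The ratio of the library labelled siRpd3 to siPiwi uses neither of the rule's libraries except through the minimum on the mean, and it was below 0.5 for 42 members, against 5.66% of all genes, and above 2 for 13, against 20.5%. Together the members took 3.97% of the mapped reads in siEGFP, 2.71% in siPiwi, 1.41% in siMi2 and 2.07% in the library labelled siRpd3.

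Many members lay close to the threshold. The siMi2 log2 ratios ran from -6.07 to -1.002 with a median of -1.29, 78 members were within 1.2-fold of the threshold, 26 were more than 4-fold lower, 8 more than 8-fold and 3 more than 16-fold. The counting interval lay wholly below 0.5-fold for 140 of the 172 and reached across it for the other 32, among them insv, GstE3 and Gr94a. Just inside the threshold stood CG1703 at -1.008, Etf-QO at -1.005 and Mtpalpha at -1.002, and just outside it stood CG2107 at -0.999, Dhod at -0.999 and shu at -0.996. Each member had at least 36 reads in siEGFP and 12 in siMi2, with medians of 1946 and 688 reads.

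The lowest member was comt, which encodes NSF1, the ATPase that takes SNARE complexes apart after membrane fusion. It lies on chromosome X:13259021-13262488 (dm6, + strand) and was at 24.9 FPKM in siEGFP, 23.4 in siPiwi, 0.272 in siMi2 and 8.24 in siRpd3. It had 2794 reads in siEGFP and 30 in siMi2, a log2 ratio of -6.07 (95% interval -6.46 to -5.68), while siPiwi was nearly level with the control and the library labelled siRpd3 stood in between at -1.58. The other SNARE and vesicle genes among the members were much nearer the threshold.

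CG9521, which encodes an oxidoreductase of the glucose-methanol-choline family, lies on chromosome X:14851005-14853269 (- strand) and overlaps Flo2. It was at 418 FPKM in siEGFP, 136 in siPiwi, 15.8 in siMi2 and 0.703 in siRpd3. The siMi2 value was 26.4-fold below the control, siPiwi was intermediate at -1.62, and the library labelled siRpd3 held only 52 reads, a log2 ratio of -9.02 (95% interval -9.38 to -8.67). This ratio to siEGFP, though not the FPKM, was the lowest of all 6149 genes in that library.

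CG1827, on chromosome 2R:9589050-9590443 (+ strand), was at 26.9 FPKM in siEGFP, 14.5 in siPiwi, 1.40 in siMi2 and 11.6 in siRpd3. CG32187, on chromosome 3L:17804916-17806365 (- strand), was at 36.6 FPKM in siEGFP, 19.4 in siPiwi, 3.38 in siMi2 and 5.57 in siRpd3. Both had no function assigned here, and both were lower in all 3 knockdowns than in siEGFP, with siMi2 the lowest library. CG13117 was at 35.9 FPKM in siEGFP, 15.6 in siPiwi, 3.77 in siMi2 and 37.6 in siRpd3, low in siMi2, under 0.5-fold in siPiwi and level with the control in the library labelled siRpd3.

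CG9272 encodes Nthl1, a DNA glycosylase that removes oxidised bases, and was at 8.95 FPKM in siEGFP, 11.4 in siPiwi, 0.816 in siMi2 and 6.77 in siRpd3. The gene ecd, for ecdysoneless, acts in ecdysteroid production and in pre-mRNA splicing, and was at 48.6 FPKM in siEGFP, 57.5 in siPiwi, 5.21 in siMi2 and 61.1 in siRpd3 on chromosome 3L:2263581-2265857 (- strand, overlapping CG13807). For both, siMi2 stood apart from the other 3 libraries: the ratio for ecd was -3.20 (95% interval -3.34 to -3.05) in siMi2, 0.24 in siPiwi and 0.33 in the library labelled siRpd3.

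**Figure D2:**
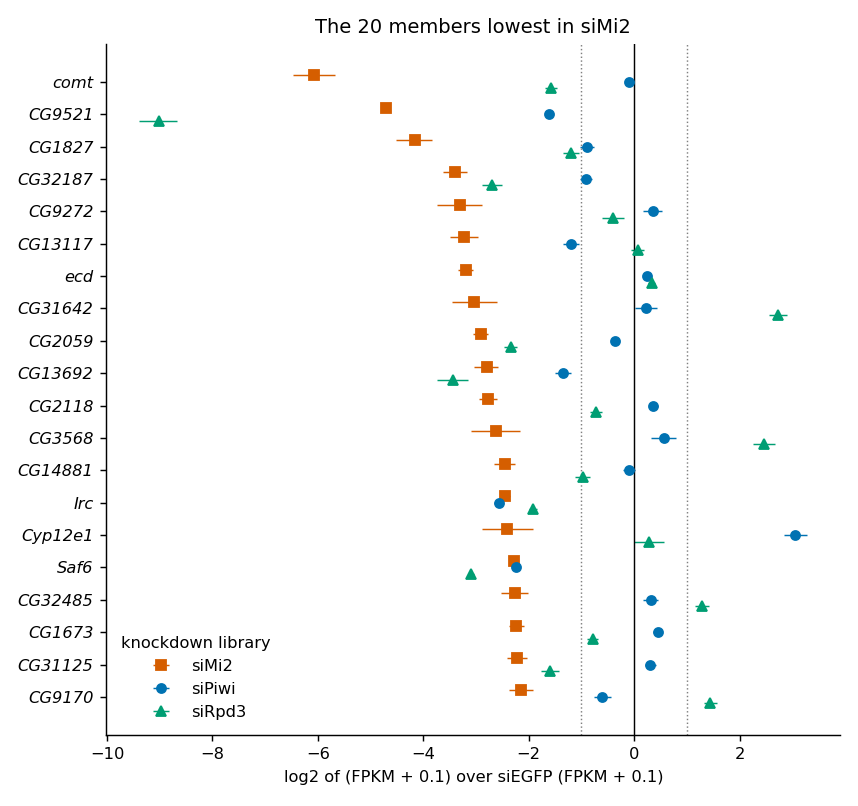
The 20 members lowest in siMi2 (rows, lowest at the top), each with its log2 ratio to siEGFP (x axis) in siMi2 (squares), siPiwi (circles) and the library labelled siRpd3 (triangles); bars are exact 95% counting intervals and dotted lines mark 0.5-fold and 2-fold. The siMi2 points run from -6.07 for comt to -2.14 for CG9170, while the triangles run from -9.02 for CG9521 to 2.73 for CG31642.

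The 20 lowest members did not share one pattern in the other libraries. CG31642, which overlaps stai, was at 4.89 FPKM in siEGFP, 5.73 in siPiwi, 0.511 in siMi2 and 32.9 in siRpd3. CG3568 was at 3.75 FPKM in siEGFP, 5.57 in siPiwi, 0.523 in siMi2 and 21.2 in siRpd3. Both were lowest in siMi2 and more than 4-fold above siEGFP in the library labelled siRpd3. CG32485, at 16.98 FPKM in siEGFP, 21.1 in siPiwi, 3.46 in siMi2 and 41.4 in siRpd3, and CG9170, the centrosomal protein Cep164, at 4.96 FPKM in siEGFP, 3.24 in siPiwi, 1.05 in siMi2 and 13.7 in siRpd3, also had their highest value there. CG31642, CG3568 and CG9170 passed the minimum mean of 5 FPKM only through that library. Their high value there is thus partly set by the filter. In contrast CG13692, at 51.3 FPKM in siEGFP, 20.1 in siPiwi, 7.28 in siMi2 and 4.65 in siRpd3, and CG2059, which overlaps CG1677 and was at 90.1 FPKM in siEGFP, 69.7 in siPiwi, 11.9 in siMi2 and 17.7 in siRpd3, were low in both siMi2 and the library labelled siRpd3. CG31125, which overlaps ash2, was at 23.7 FPKM in siEGFP, 29.3 in siPiwi, 4.999 in siMi2 and 7.75 in siRpd3, low in the same 2 libraries. CG14881, which overlaps mRpS33, was at 34.3 FPKM in siEGFP, 31.9 in siPiwi, 6.15 in siMi2 and 17.4 in siRpd3, with siPiwi nearly level with the control.

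The members also included abundant RNAs of sugar and energy metabolism. ImpL3, which encodes lactate dehydrogenase (Ldh), the enzyme that turns pyruvate into lactate, was the member with the most FPKM. It lies on chromosome 3L:6259105-6262694 (- strand) and was at 2632 FPKM in siEGFP, 1436 in siPiwi, 734 in siMi2 and 324 in siRpd3. Taldo, transaldolase of the pentose phosphate pathway, lies on chromosome 2R:23940410-23942114 (+ strand) and was at 1738 FPKM in siEGFP, 705 in siPiwi, 815 in siMi2 and 405 in siRpd3. Argk, arginine kinase, which stores high-energy phosphate, lies on chromosome 3L:9048781-9066027 (- strand) and was at 1334 FPKM in siEGFP, 458 in siPiwi, 387 in siMi2 and 178 in siRpd3. In each the control was the highest library and the library labelled siRpd3 the lowest. Among these RNAs siMi2 was below siPiwi for ImpL3 and Argk and above it for Taldo.

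The fatty acid binding protein gene fabp was at 1258 FPKM in siEGFP, 574 in siPiwi, 535 in siMi2 and 188 in siRpd3, and it overlaps sea. Inos, inositol-3-phosphate synthase, which opens the route from glucose phosphate to inositol, was at 954 FPKM in siEGFP, 354 in siPiwi, 222 in siMi2 and 117 in siRpd3. The transporter MFS3 was at 517 FPKM in siEGFP, 221 in siPiwi, 131 in siMi2 and 66.4 in siRpd3. Their order was the same, with siEGFP highest and the library labelled siRpd3 lowest, and all were under 0.5-fold in every knockdown. CG6330 was at 782 FPKM in siEGFP, 471 in siPiwi, 377 in siMi2 and 205 in siRpd3.

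Other abundant members differed from this order. Arc1, whose protein forms retrovirus-like capsids that carry RNA, was at 1240.3 FPKM in siEGFP, 824 in siPiwi, 505 in siMi2 and 1266 in siRpd3, so that only siMi2 was under 0.5-fold and the library labelled siRpd3 was level with the control. Non1, a nucleolar GTPase of ribosome assembly, was at 523 FPKM in siEGFP, 313 in siPiwi, 167 in siMi2 and 221 in siRpd3, lowest in siMi2. Ald, the aldolase of glycolysis, was at 485 FPKM in siEGFP, 437 in siPiwi, 211 in siMi2 and 337 in siRpd3, also lowest in siMi2 and nearly level in siPiwi.

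**Figure D3:**
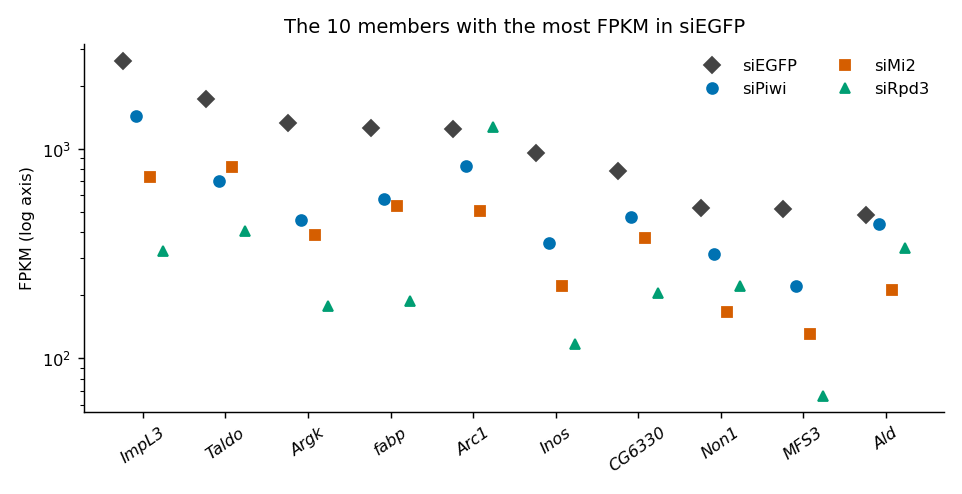
FPKM (log axis) of the 10 members with the most FPKM in siEGFP, one marker for each of the 4 libraries (diamond siEGFP, circle siPiwi, square siMi2, triangle the library labelled siRpd3). The control diamond is the highest marker for 9 of the 10, the exception being Arc1, and the triangle is the lowest for 7, from ImpL3 to MFS3.

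Over the 39 members at 100 FPKM or more in siEGFP, 10 were below 0.5-fold in siPiwi and 23 in the library labelled siRpd3. Among all genes at that level, 2.12% were below 0.5-fold in siPiwi and 21.8% in the library labelled siRpd3. The medians of these members were -0.53 and -1.19, against -0.07 and -0.47 over all genes at that level. Choosing genes by a high siEGFP value, which is the denominator of every ratio, lowers these ratios by construction, for members and all genes alike.

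For 99 members a function was assigned by hand from gene names, and 73, most with only a CG number, were left without one. The groups were drawn up after the members were known, so their sizes are a description. The largest was lipid and acyl-CoA metabolism with 11 members, followed by sugar metabolism, amino acid and nucleotide metabolism, translation, and mitochondrial function with 8 each.

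The 8 sugar genes had medians of -1.20 in siMi2, -0.76 in siPiwi and -0.97 in the library labelled siRpd3, and all 8 were below 0 in every knockdown. In siMi2 the rule fixed this. In siPiwi 62.8% of the members and 28.3% of all genes tested were below 0. In the library labelled siRpd3 these shares were 67.4% and 33.4%. Besides ImpL3, Taldo, Inos and Ald, they were Pgi, the phosphoglucose isomerase of glycolysis, at 179 FPKM in siEGFP, 155 in siPiwi, 56.5 in siMi2 and 103 in siRpd3, and Tret1-1, a trehalose transporter that overlaps Roc2, at 107 FPKM in siEGFP, 52.9 in siPiwi, 46.9 in siMi2 and 48.6 in siRpd3. Tret1-1 was near 0.5-fold in all 3 knockdowns and Pgi lowest in siMi2. Glycogen synthase, GlyS, was at 127 FPKM in siEGFP, 81.04 in siPiwi, 56.1 in siMi2 and 121 in siRpd3, and CG8417, mannose phosphate isomerase, at 39.4 FPKM in siEGFP, 25.03 in siPiwi, 19.2 in siMi2 and 26.1 in siRpd3. All sugar genes but CG8417 were above 100 FPKM in siEGFP. Over all genes at 100 FPKM or more the medians were also below 0, at -0.07 in siPiwi and -0.47 in the library labelled siRpd3.

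**Figure D4:**
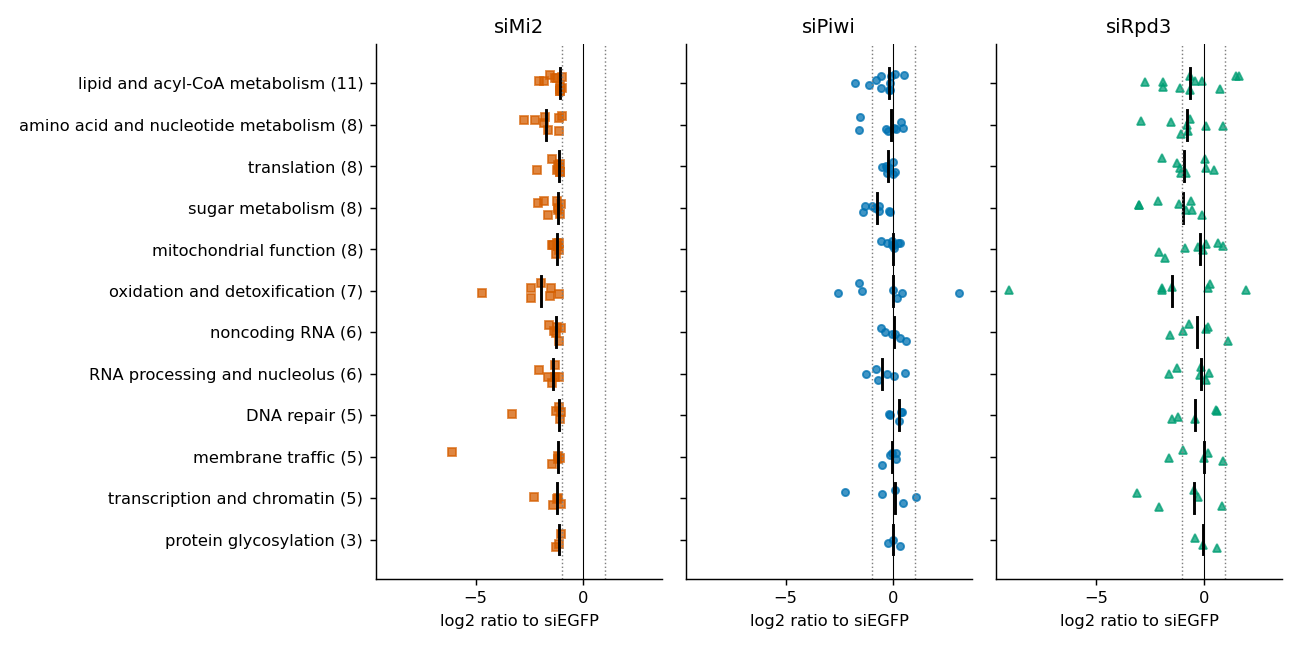
Log2 ratio to siEGFP (x axis) of the members in a function group, in siMi2 (left), siPiwi (middle) and the library labelled siRpd3 (right), by group (rows, number of members in brackets, without 19 named genes outside these groups); each marker is a gene, black bars are group medians and dotted lines mark 0.5-fold and 2-fold. All siMi2 markers are left of 0.5-fold by the rule, sugar genes have a median of -0.76 in siPiwi, and the group of oxidation and detoxification spans -9.02 to 1.98 in the library labelled siRpd3.

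The 11 lipid and acyl-CoA genes had a median of -1.09 in siMi2, close to the threshold, and of -0.22 and -0.62 in siPiwi and the library labelled siRpd3. AcCoAS, which makes acetyl-CoA from acetate, was at 198 FPKM in siEGFP, 132 in siPiwi, 47.1 in siMi2 and 53.2 in siRpd3. CG9149, the acetyl-CoA acetyltransferase Acat2, was at 484 FPKM in siEGFP, 139 in siPiwi, 137 in siMi2 and 131 in siRpd3. It was the same in the 3 knockdowns to within 0.1 on the log2 scale, at -1.82, -1.80 and -1.89. FASN1, the fatty acid synthase, was at 42.3 FPKM in siEGFP, 44.1 in siPiwi, 20.2 in siMi2 and 130.2 in siRpd3, and scramb1, a phospholipid scramblase, at 37.1 FPKM in siEGFP, 52.8 in siPiwi, 12.6 in siMi2 and 105 in siRpd3. These 2 were the group's genes above 2-fold in the library labelled siRpd3, where FASN1 lost that position once genes of similar length were taken as the reference (-0.37). Lsd-2, the perilipin that coats lipid droplets, was at 20.2 FPKM in siEGFP, 18.2 in siPiwi, 8.22 in siMi2 and 9.47 in siRpd3, lower in siMi2 and in the library labelled siRpd3. The genes of fatty acid oxidation, CG7461 (very long chain acyl-CoA dehydrogenase), Mtpalpha and Etf-QO, were at -1.06, -1.002 and -1.005 in siMi2 and all within 2-fold elsewhere.

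Amino acid and nucleotide enzymes included 3 of branched-chain amino acid breakdown. CG1673, the branched-chain aminotransferase Bcat, was at 22.5 FPKM in siEGFP, 30.6 in siPiwi, 4.70 in siMi2 and 12.99 in siRpd3. CG2118, a subunit of methylcrotonyl-CoA carboxylase in leucine breakdown that overlaps faf, was at 21.9 FPKM in siEGFP, 28.2 in siPiwi, 3.12 in siMi2 and 13.2 in siRpd3. CG5599, the branched-chain transacylase Dbct, was at 5.98 FPKM in siEGFP, 6.43 in siPiwi, 2.66 in siMi2 and 6.51 in siRpd3. All 3 were lowest in siMi2 and above the control in siPiwi. In a list of this pathway drawn up after the members were known, 3 of 4 tested genes were members, against 2.8% of all genes. The nucleotidase CG2277, next to CG9149 on chromosome 3L, was at 39.3 FPKM in siEGFP, 12.99 in siPiwi, 11.2 in siMi2 and 13.9 in siRpd3, lower in all 3 knockdowns.

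In the group of oxidation and detoxification, Irc, an immune-regulated catalase, was at 87.6 FPKM in siEGFP, 14.6 in siPiwi, 15.96 in siMi2 and 23.02 in siRpd3. It was under 0.5-fold in each knockdown, lowest in siPiwi at -2.57 (95% interval -2.66 to -2.49). CG1275, a cytochrome b561, was at 81.7 FPKM in siEGFP, 106 in siPiwi, 20.9 in siMi2 and 29.5 in siRpd3, above the control in siPiwi. The P450 genes diverged. Cyp6d5, which overlaps rdx, was at 22.9 FPKM in siEGFP, 8.15 in siPiwi, 7.73 in siMi2 and 5.87 in siRpd3, and Cyp12e1 at 3.14 FPKM in siEGFP, 26.8 in siPiwi, 0.512 in siMi2 and 3.82 in siRpd3. Cyp18a1, the hydroxylase that inactivates ecdysteroids, was at 20.2 FPKM in siEGFP, 22.4 in siPiwi, 7.04 in siMi2 and 79.9 in siRpd3. Cyp6d5 was thus low in every knockdown, Cyp12e1 highest in siPiwi and Cyp18a1 highest in the library labelled siRpd3. Cyp12e1 passed the minimum mean of 5 FPKM only through siPiwi, so its high value there is partly set by the filter. GstE3, a glutathione S-transferase, was at 25.7 FPKM in siEGFP, 25.2 in siPiwi, 11.7 in siMi2 and 29.9 in siRpd3 and lower in siMi2 only.

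The 8 genes of mitochondrial function had medians of -1.20 in siMi2, -0.02 in siPiwi and -0.16 in the library labelled siRpd3. Ttc19, an assembly factor of respiratory complex III that overlaps Catsup, was at 27.2 FPKM in siEGFP, 25.7 in siPiwi, 9.86 in siMi2 and 6.49 in siRpd3, and the matrix protein P32 at 272 FPKM in siEGFP, 257 in siPiwi, 119.7 in siMi2 and 78.5 in siRpd3. These 2 were the group's genes below 0.5-fold in the library labelled siRpd3. Lon, the mitochondrial protease, was at 36.8 FPKM in siEGFP, 42.9 in siPiwi, 16.9 in siMi2 and 58.2 in siRpd3, and Cox10 (CG5037), needed for haem A, at 57.2 FPKM in siEGFP, 71.6 in siPiwi, 25.1 in siMi2 and 55.3 in siRpd3, lower in siMi2 only.

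The 8 translation genes had medians of -1.15 in siMi2, -0.24 in siPiwi and -0.93 in the library labelled siRpd3, where 4 were below 0.5-fold, against 7.42% of all genes. Among all genes at 100 FPKM or more in siEGFP, 21.8% were below 0.5-fold in that library. RpS19b, a ribosomal protein with the paralogue RpS19a, was at 106 FPKM in siEGFP, 86.8 in siPiwi, 24.1 in siMi2 and 27.8 in siRpd3, and how reads shared by the 2 copies were assigned is uncertain. The initiation factor subunit gene eIF3-S8 was at 449 FPKM in siEGFP, 306 in siPiwi, 162 in siMi2 and 218 in siRpd3, and eIF3-S9 at 172 FPKM in siEGFP, 181 in siPiwi, 80.4 in siMi2 and 242 in siRpd3. Both were lowest in siMi2, and eIF3-S9 was above the control in the library labelled siRpd3. The tryptophanyl-tRNA synthetase gene Aats-trp was at 139 FPKM in siEGFP, 122 in siPiwi, 59.6 in siMi2 and 78.95 in siRpd3, and the aspartyl-tRNA synthetase gene Aats-asp, which overlaps the member CR45141, at 131 FPKM in siEGFP, 130.2 in siPiwi, 58.2 in siMi2 and 135 in siRpd3.

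Genes of DNA repair, nucleolar RNA processing and chromatin were present in small numbers. Ku80, which binds broken DNA ends, was at 94.1 FPKM in siEGFP, 81.001 in siPiwi, 44.96 in siMi2 and 40.98 in siRpd3, Top3alpha at 12.6 FPKM in siEGFP, 16.9 in siPiwi, 5.17 in siMi2 and 19.8 in siRpd3, and pic, the DDB1 subunit of a damage-binding ubiquitin ligase, at 52.1 FPKM in siEGFP, 62.9 in siPiwi, 25.5 in siMi2 and 76.6 in siRpd3. Each was lowest in siMi2 except Ku80, which was lowest in the library labelled siRpd3. Saf6, a subunit of the SAGA coactivator, was at 337 FPKM in siEGFP, 71.3 in siPiwi, 69.1 in siMi2 and 39.3 in siRpd3 and overlaps the member Dbp21E2. HmgZ, a chromosomal HMG-box protein that overlaps HmgD, was at 394 FPKM in siEGFP, 540.1 in siPiwi, 174 in siMi2 and 95.2 in siRpd3, and the nuclear receptor Hnf4 at 9.75 FPKM in siEGFP, 6.63 in siPiwi, 4.16 in siMi2 and 8.16 in siRpd3. Saf6 was under 0.5-fold in all 3 knockdowns, HmgZ was highest in siPiwi, and Hnf4 was under 0.5-fold in siMi2 only.

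Of the members, 164 were protein coding, 7 were noncoding in the annotation and 1, a snoRNA, had no match there. The 6 long noncoding RNAs had a median of -1.25 in siMi2 and 0.00 in siPiwi. CR44953 was at 21.4 FPKM in siEGFP, 26.7 in siPiwi, 8.73 in siMi2 and 47.7 in siRpd3 and CR43242 at 15.6 FPKM in siEGFP, 23.7 in siPiwi, 5.05 in siMi2 and 7.90 in siRpd3, both lowest in siMi2.

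Counting the other 2 libraries together sorts the members. In siPiwi and the library labelled siRpd3 alike, 20 members were below 0.5-fold, against 0.976% of all genes. Beside CG9521, CG13692, Irc, Saf6, Inos, MFS3, CG9149, CG2277, Argk, Cyp6d5, fabp, Tret1-1 and Taldo they were CG8620, CG4210, CG42747, CG13937, the snoRNA Psi28S-2444 inside RpL11, the proteasome paralogue Prosbeta2R2 and Zasp66. Zasp66, a Z-band protein that overlaps Cdc6, was at 37.1 FPKM in siEGFP, 0.922 in siPiwi, 10.9 in siMi2 and 0.888 in siRpd3, the lowest member in siPiwi at -5.18 (95% interval -5.55 to -4.84). Its siMi2 value was the highest of the 3 knockdowns. A further 41 were below 0.5-fold in the library labelled siRpd3 and within 2-fold in siPiwi, against 6.44% of all genes, and 3 (CG13117, CG6178 and CG31098) were the other way round, against 0.472%. For 90 members both libraries were within 2-fold of the control, against 55.5%.

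The members higher than the control elsewhere were few. dec-1, which encodes eggshell proteins of the follicle cells, was the one above 2-fold in both libraries, against 8.2% of all genes. It lies on chromosome X:7867161-7873222 (- strand) and was at 21.4 FPKM in siEGFP, 73.9 in siPiwi, 9.07 in siMi2 and 115 in siRpd3, so siMi2 was the lowest and the library labelled siRpd3 the highest. The other 4 above 2-fold in siPiwi were Cyp12e1, CG3036 at 7.05 FPKM in siEGFP, 18.6 in siPiwi, 2.97 in siMi2 and 9.19 in siRpd3, pon, a partner of the fate determinant Numb, at 26.7 FPKM in siEGFP, 58.7 in siPiwi, 11.7 in siMi2 and 24.3 in siRpd3, and insv, a corepressor of Notch target genes, at 6.91 FPKM in siEGFP, 14.2 in siPiwi, 3.29 in siMi2 and 12.5 in siRpd3. Another 13 were above 2-fold in the library labelled siRpd3 and within 2-fold in siPiwi, against 27% of all genes, among them CG31642, CG3568, Cyp18a1 and FASN1. Of the genes named here, CG31642 and CG3568 passed the minimum mean only through the library labelled siRpd3, and Cyp12e1 only through siPiwi.

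Transcript length moved with these values. The median length was 1777 nt for the members and 1688 nt for all genes tested. In the library labelled siRpd3, all genes under 1000 nt had a median log2 ratio of -0.23 and all of 4000 nt and over one of 1.74. The 32 members under 1000 nt had a median of -1.21, the 67 from 1000 nt one of -0.60, the 68 from 2000 nt one of -0.31 and the 5 of 4000 nt and over one of 0.95. The members were lower than all genes in each length class, also in siPiwi. Members recomputed relative to the 200 genes nearest in length numbered 197, of which 169 were among the 172.

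**Figure D5:**
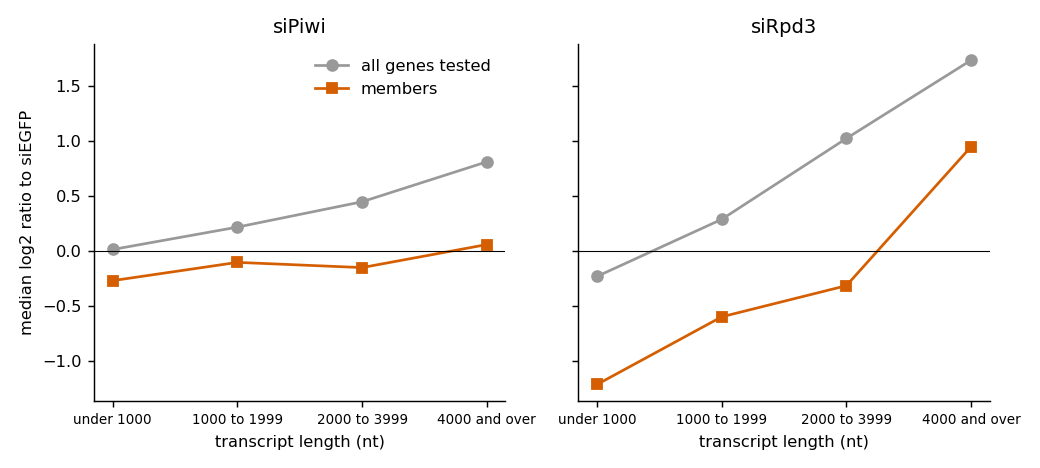
Median log2 ratio to siEGFP (y axis) in siPiwi (left) and the library labelled siRpd3 (right) by transcript length class (x axis, nt), for members (squares) and all genes tested (circles). In the library labelled siRpd3 both lines go up with length, from -1.21 to 0.95 for the members and from -0.23 to 1.74 for all genes, the longest class holding 5 members.

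The members were counted in lists of genes of these cells and of common pathways, beside a share of 2.8% members among all genes tested, at which short lists are likely to hold none. Of 30 listed follicle and somatic gonad identity genes 12 were tested, of which 0 were members, and their median log2 ratio in siMi2 was 1.38. The minimum on the mean admits genes low in siEGFP and high in a knockdown, such as fz3, at 0.889 FPKM in siEGFP and 11.9 in siMi2. This median is therefore partly set by the filter. Of 19 tested piRNA pathway genes, 1 was a member, and the median over the 19 was -0.06 in siMi2. While shu at -0.996 and zuc at -0.96 in siMi2 lay just outside the threshold, the list as a whole was thus near level. The member, vret, a Tudor-domain protein of piRNA production that overlaps CG6985, was at 43.9 FPKM in siEGFP, 42.5 in siPiwi, 17.8 in siMi2 and 25.2 in siRpd3. Of 13 extracellular matrix genes the member was Timp, the inhibitor of matrix metalloproteases, at 122 FPKM in siEGFP, 106 in siPiwi, 38.2 in siMi2 and 79.7 in siRpd3. None of the 7 tested dNuRD and dMec genes, the 18 adhesion genes or the 17 heat shock genes was a member, against 2.8% of all genes. The same held for 8 Notch, 9 Hippo, 8 JAK/STAT, 13 EGFR and FGFR and 18 Wnt, Hedgehog and BMP genes, for 10 immune genes, 10 developmental transcription factors, 12 serpins and serine proteases and 3 cuticle genes. Against the same 2.8%, of 20 P450 genes 3 were members, of 24 glutathione S-transferase genes 1, of 6 ecdysone response genes 1 (Cyp18a1), of 15 actin and muscle genes 1 (Zasp66), and of 32 solute carrier and channel genes 3 (MFS3, Tret1-1 and the gustatory receptor Gr94a). Except in the ecdysone list, more genes of these lists went the other way. Above 2-fold in siMi2 were 5 P450, 7 glutathione S-transferase, 9 solute carrier and channel and 2 actin and muscle genes, against 10.7% of all genes. The same was true of 6 of the 13 extracellular matrix genes.

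Other genes of the pathways that held members are given next, again against 2.8% members among all genes. Of 11 tested glycolysis genes 3 were members, and the median of the 11 was -0.40 in siMi2, -0.35 in siPiwi and -1.06 in the library labelled siRpd3, where 7 of the 11 were below 0.5-fold, against 7.42% of all genes and 21.8% of genes at 100 FPKM or more in siEGFP. There the member ImpL3 was the lowest of the 11 at -3.02. The non-members Gapdh2 at -2.57 and Pgk at -1.77 were further below the control than the other members, Pgi at -0.80 and Ald at -0.52. Of 6 pentose phosphate genes 1 was a member and of 13 genes of mitochondrial fatty acid oxidation 3 were. Of 13 eIF3 subunits 2 were members, with a median over the 13 of -0.59 in siMi2. Of 33 aminoacyl-tRNA synthetase genes 2 were members, and of 84 ribosomal protein genes 1 was. The ribosomal protein genes had a median of -0.01 in siMi2 and -1.29 in the library labelled siRpd3. All these lists except the ribosomal one were drawn up after the members were known.

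The members were spread over the genome. Chromosome X held 19, which is 11.0%, against 17.6% of all genes tested. Chromosome 3R held 46, which is 26.7%, against 24.02% of all genes tested. Another tested gene overlapped 63 members in the annotation, and because it is not stated whether strand was used in counting, reads of such genes cannot be told apart. No share over all genes was computed for these overlaps or for the pairs that follow. There were 7 pairs of members consecutive in the annotation, of which several share sequence and are not separate neighbours: CG4984 and CG4975 have the same interval and strand, Dbp21E2 and Saf6 overlap, and the antisense RNA CR45175 lies inside CG5567. CG9149 and CG2277 do not overlap each other. CG5567 was at 28.4 FPKM in siEGFP, 25.9 in siPiwi, 12.7 in siMi2 and 25.8 in siRpd3 and CR45175 at 13.95 FPKM in siEGFP, 14.6 in siPiwi, 6.43 in siMi2 and 16.1 in siRpd3, both lowest in siMi2 and within 2-fold of the control in the other 2.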

How the data were processed

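RNA-seq of poly(A) RNA was deposited for 4 libraries of ovarian somatic cells (siEGFP, siPiwi, siMi2 and siRpd3), 1 per condition. The authors aligned reads with Bowtie2 version 2.2.4 to dm6 and deposited FPKM for 35327 transcript rows. Here the rows were summed per gene symbol, giving 16792 genes, and log2 ratios were taken of FPKM plus a pseudocount of 0.1. Below 0.5-fold is called lower and above 2-fold higher; with 1 library per condition no test was run. The members and lists were chosen with earlier results of these data known.

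Whole reads were recovered from the steps between values: for transcripts of intronless genes, 97.6% to 97.8% of the values came out within 0.003 of a whole number, at 32638866 to 38060116 mapped reads, and 28491 of 28510 rows above 0 were given a length. Because a condition has 1 library, no count test was run on these reads, and they gave only exact Clopper-Pearson intervals. The recovery was tested on simulated data. RefSeq accessions matched 98.9% of rows, coordinates are from the BDGP6 annotation (dm6), and genes that no table matched keep their listed name. Named members were the 20 lowest in siMi2, the 10 highest in siEGFP, the 5 lowest and highest in siPiwi and in siRpd3, those in a gene list and those next to the threshold; others named beside a function group were chosen after their values were seen. The deposited table of transposons was not used. Calculations were made in Python 3.11.15 with scipy 1.17.1 (intervals), pandas 2.3.3 and numpy 2.4.6, and plots with matplotlib 3.10.9.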

Additional observations from a re-analysis of the deposited data

How the results depend on the processing

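The choices behind the members were varied 1 at a time, in 10 planned ways and 2 chosen after seeing the data. The median of the members was below 0 in the library labelled siRpd3 under all 12, and in siPiwi under all but the 1.5-fold threshold, where it was 0.0049. The cause of the shifts below was not tested except where a looser or stricter rule takes more or fewer genes by its construction. For altered minimums, thresholds, transcripts and length references, the share of all genes lower or higher was not computed. Those counts therefore describe how the numbers move and are not set against all genes. With a minimum mean of 1 FPKM there were 272 members, with 41 lower and 8 higher in siPiwi and 93 lower and 33 higher in the library labelled siRpd3. With no minimum there were 547, with a median of -0.45 in siPiwi and 172 lower and 14 higher there, and with 224 lower and 58 higher in the library labelled siRpd3. A threshold of 1.5-fold, applied to every call, gave 677 members, with 75 lower and 60 higher in siPiwi, and with a median of -0.090 and 208 lower and 160 higher in the library labelled siRpd3. A threshold of 4-fold gave 26 members, with 2 lower and 1 higher in siPiwi, and with a median of -1.59 and 8 lower and 2 higher in the library labelled siRpd3. With libraries scaled to the median gene, the 191 members had medians of -0.41 in siPiwi, with 39 lower and 3 higher, while in the library labelled siRpd3 the median was -0.94, 93 being lower and 5 higher. Taken relative to the 200 genes nearest in length, 197 members had medians of -0.42, with 43 lower and 2 higher, and of -1.09, with 103 lower and 7 higher, and FASN1 changed sign in the library labelled siRpd3, to -0.37. A minimum of 10 FPKM left 2 members higher in siPiwi, and taking a single transcript per gene, the one with the highest mean, left 3. The 109 members that overlap no other tested gene had 14 lower in siPiwi, against 1.72% of all genes, overlapping or not. In the library labelled siRpd3 they had 36 lower, against 7.42%. The 140 with an interval wholly below 0.5-fold had a median of -0.72 in the library labelled siRpd3. The 172 members were all still taken with a pseudocount of 0.01 FPKM, 154 of them with 1 FPKM, 172 with scaled libraries, 169 relative to length and 148 with a single transcript. No paired analysis was possible because each condition had 1 library, and for the same reason none could be left out. Both the 1 library per condition and the depth limit these values: the fewest reads of a member in siMi2 were 12, for the snoRNA Psi28S-2444, whose interval there was -3.04 to -1.15.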
